A study of Mus musculus with 15 samples.

Results

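Gene expression was compared by RNA sequencing between a pair of Foxp1-edited clones of the same lymphoma line. The line, A20, derives from a BALB/c B-cell lymphoma and grows in culture. The clone E7.2 (E7 clone 2), labelled as mutated in Foxp1 exon 7, was compared with the clone E6.1 (E6 clone 1), labelled as mutated in Foxp1 exon 6. The 6 libraries were chosen by their labels, 3 titled as E7 clone 2 and 3 titled as E6 clone 1, from 15 in the series. The other 9 libraries came from the unedited parental line (wild type), from E6.2 (E6 clone 2) and from E7.1 (E7 clone 1), with 3 libraries each. The 3 replicates of a line were collected from separate passages. Each clone was made with a plasmid that carries Cas9 and a guide, and was grown from 1 sorted cell. Each exon is therefore represented here by 1 clone, so a difference between the exons and a difference between the clones cannot be told apart, and p-values measure the spread between passages of a clone.

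Foxp1 is a forkhead transcription factor that binds DNA and mostly represses its targets, with partners such as Foxp2, Foxp4 and histone deacetylase complexes. It is needed for early B-cell development, is lowered when B cells enter the germinal center, and is made at high level, partly as shorter proteins, in the activated B-cell type of diffuse large B-cell lymphoma. Editing a coding exon can shift the reading frame, and a messenger RNA with an early stop codon can be destroyed by nonsense-mediated decay.

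The exons named in the labels are shown because they are what was meant to distinguish the clones. Both lie on the reverse strand of chromosome 6 in GRCm38 and follow each other in the transcript Foxp1-204 of the GENCODE M21 annotation, which has 19 exons. Other transcripts number these exons differently. Exon 6 covers chr6:99016528-99016665 and exon 7 covers chr6:99015424-99015510. The sequences read 5′ to 3′ in the direction of the transcript, and no base is in capitals because the guide sites were not marked here.
exon 6: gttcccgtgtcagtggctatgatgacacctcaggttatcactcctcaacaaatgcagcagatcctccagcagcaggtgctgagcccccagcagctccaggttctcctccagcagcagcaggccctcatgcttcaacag
exon 7: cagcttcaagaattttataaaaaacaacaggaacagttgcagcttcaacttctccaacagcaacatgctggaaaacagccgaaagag
Exon 6 has 138 bases and exon 7 has 87, both wholly coding. The length of each is a multiple of a codon, with 0 bases beyond whole codons.

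Levels are given as CPM, the share of a library's counted read pairs after TMM normalization, and a difference is the log2 fold change of E7.2 over E6.1 fitted by edgeR, so that a positive value is higher in E7.2. The 6 libraries held 30194829 to 39181530 counted read pairs. B-cell markers were present in both clones. All 12 of the B-cell markers passed the filter on low counts, and their summed level was 2094 to 2193 CPM in E6.1 and 2195 to 2457 CPM in E7.2. The summed markers of T cells, NK cells, macrophages, neutrophils, red cells and stroma were at most 32.6 CPM in each case. E7.2 replicate 3 stood apart from the other 5 libraries. Its 10 highest genes took 14.7% of the counts against 5.55% to 7.52% elsewhere, and the SD of its deviations from its own line's mean was 0.569 (log2, all tested genes) against 0.277 to 0.363. Results that rest on it are given with and without it.

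Foxp1 itself was lower in E7.2. Its level was 37.1, 39.6 and 52.3 CPM in the E7.2 libraries and 103, 99.5 and 109 CPM in the E6.1 libraries. The lines did not overlap, and the parental libraries lay near or above E6.1 at 102, 166 and 147 CPM. The mean was 43.0 ± 8.19 CPM (SD, n = 3) in E7.2 and 104 ± 4.60 CPM (SD, n = 3) in E6.1, a difference of -1.27 ± 0.20 (log2 fold change ± SE, adjusted p = 0.00786). Against the parental line, the fitted differences were -0.41 for E6.1 and -1.69 for E7.2. Foxp1 was not called when E6.1 replicate 3 (adjusted p = 0.0542), E7.2 replicate 1 (0.0673) or E7.2 replicate 2 (0.0684) was left out, or when gene length and GC content were corrected for (-1.11, adjusted p = 0.0912). The counts cover the whole gene and do not show which protein is made.

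Few other genes were called between the clones. Of 13904 genes tested, 49 were called at an adjusted p under 0.05 (0.352%), 35 higher in E7.2 (0.252%) and 14 lower (0.101%). Without E7.2 replicate 3, 36 were called higher and 12 lower, including 41 of the 49. Of the 49, 24 were called in each of the 6 fits that left out 1 library of these clones. The fits in which the others were called numbered 5 for Aldoart2, 4 for Cd36, Gm13715, Serpinf1 and Slc22a15, and 3 for Foxp1, Cmtm6 and Tmtc1. They numbered 2 for Pdcl, Adgrl2, Dusp9, Crtap and Hk1, and 1 for Fam168a, Myof, Smpdl3b, Bnip3, Dlx1, Tln2 and Gm6445. Gm21850, Smad7, Rgcc, Ubp1 and Trp53i11 were called in 0 of them. All 3 libraries of one clone lay outside the range of the other for each of the 49, which also held for 13.1% of all tested genes upwards and 16.6% downwards. At an unadjusted p under 0.05, 918 genes (6.6%) were higher and 696 (5.01%) lower. The change was at least 2-fold for 28 of the 35 higher and 13 of the 14 lower genes. The parental line was set beside both clones. Its mean level lay closer to E7.2 than to E6.1 for 30 of the 35 higher genes and for 4 of the 14 lower genes, against 38.1% of all tested genes. E6.1 lay below all the other 12 libraries for 20 of the 35 (0.575% of all tested genes did) and above them for 5 of the 14 (0.719%). E7.2 lay above all other libraries for 6 of the 35 (0.568%) and below them for 4 of the 14 (0.453%). Neither clone stood apart for 10 of the 35 and 5 of the 14. These positions are a description, since the 49 genes were chosen for a difference between the same libraries. They do not show that only 1 clone had moved. Gm10863, for example, differed from the parental line by -3.05 in E6.1 and by -6.83 in E7.2.

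**Figure D1:**
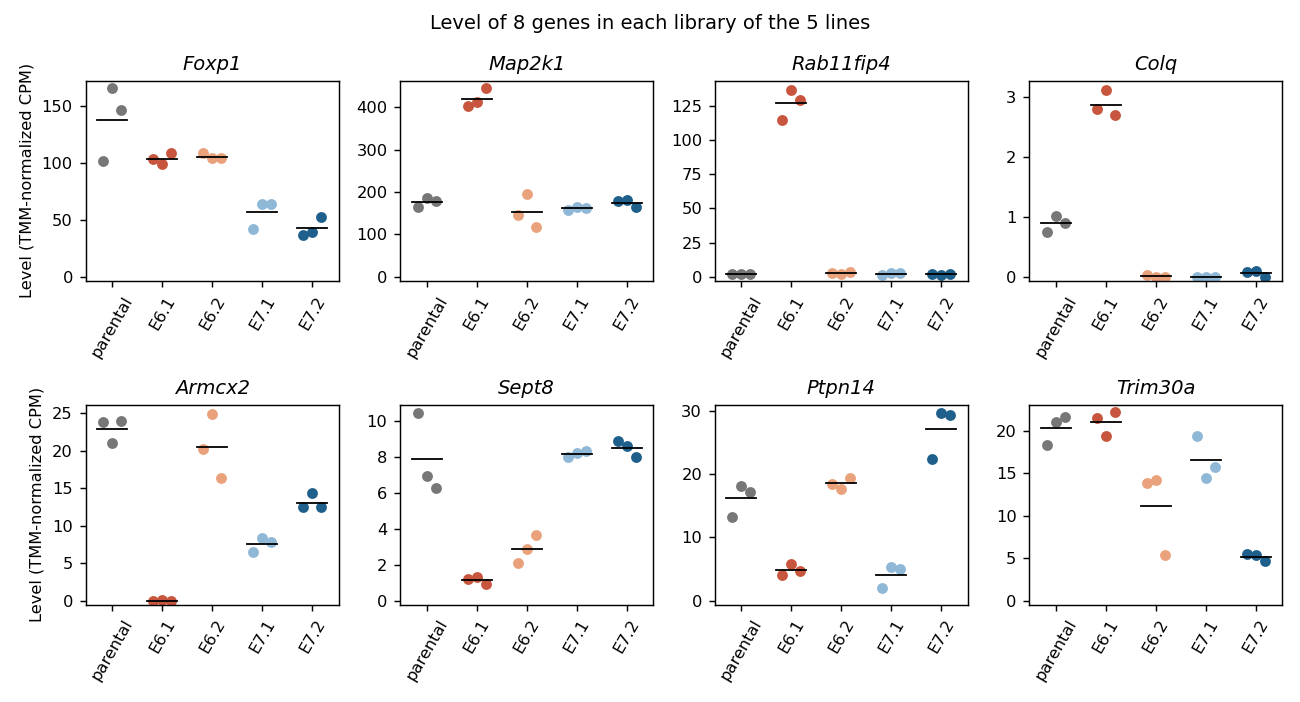
Level of 8 genes in each of the 15 libraries, in TMM-normalized CPM on a linear axis from 0, with 1 point per library and a bar at the mean of each line. Map2k1, Rab11fip4 and Colq stand apart in E6.1 on the high side, Armcx2 and Sept8 on the low side, while Ptpn14 and Trim30a stand apart in E7.2 against E6.1 in opposite directions and Foxp1 is low in both E7 clones.

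Rab11fip4, an effector of the recycling endosome GTPase Rab11, had the largest fold change among the called genes with counts in all 6 libraries. Its level was 115, 136 and 130 CPM in E6.1 and 1.85, 1.63 and 2.25 CPM in E7.2. The 9 libraries of the other lines, at 1.26 to 3.52 CPM, were like E7.2. The fitted difference was -6.06 ± 0.31 (adjusted p = 7.38e-08), or 66.6-fold. The gene lies on chromosome 11 at 79591212 to 79698023 in GRCm38.

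Map2k1, which encodes the kinase MEK1 of the Ras to ERK cascade, was also high in E6.1. Its level was 402, 412 and 445 CPM there and 178, 182 and 165 CPM in E7.2. Parental, E6.2 and E7.1 libraries held 117 to 195 CPM and overlapped E7.2. The mean was 420 ± 22.3 CPM (SD, n = 3) in E6.1 and 175 ± 8.74 CPM (SD, n = 3) in E7.2, a difference of -1.26 ± 0.16 (adjusted p = 0.00118). The gene lies on chromosome 9 at 64185770 to 64253631.

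Colq, the collagen tail that anchors acetylcholinesterase, was at 2.79, 3.11 and 2.70 CPM in E6.1 and at 0.0792, 0.107 and 0 CPM in E7.2. The parental line was between them at 0.756 to 1.01 CPM, and E6.2 and E7.1 were at or close to 0. The difference was -5.40 ± 0.65 (adjusted p = 0.00235). A pair of noncoding genes on chromosome 2 had counts in no line but E6.1. The long noncoding RNA gene Gm13715 was at 3.55, 2.49 and 3.38 CPM there, at least 112.4-fold higher than in E7.2 when E7.2 is set at 3 counts over its 3 libraries (adjusted p = 0.00786). The pseudogene Gm21850 was at 1.11, 0.818 and 1.53 CPM in E6.1, at least 42.1-fold higher by the same floor (adjusted p = 0.0398), and it was called in 0 of the 6 fits that left out 1 library. Reads of a pseudogene can be shared with its parent gene, so that value is uncertain.

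Armcx2, a member of an armadillo-repeat family on the X chromosome (134804145 to 134809221), was all but missing from E6.1. Its level was 0, 0.0327 and 0 CPM in E6.1, which is 1 read pair in all, and 12.5, 14.3 and 12.4 CPM in E7.2. Every other line expressed it, with 20.2, 24.9 and 16.3 CPM in E6.2, 6.45, 8.38 and 7.87 CPM in E7.1 and 21.0 to 23.9 CPM in the parental line. The ratio of E7.2 to E6.1 was 1337 (95% interval 239.6 to 52860, counting error only, adjusted p = 1.153e-08).

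Sept8, a septin that forms filaments below the membrane, was at 1.17, 1.31 and 0.926 CPM in E6.1 and at 8.87, 8.61 and 7.95 CPM in E7.2. Parental and E7.1 libraries, at 6.23 to 10.4 CPM, lay around E7.2, and E6.2 lay between at 2.09, 2.84 and 3.64 CPM. The difference was 2.90 ± 0.26 (adjusted p = 0.000103). Pdzph1, a protein with PDZ and pleckstrin homology domains, was at 1.17, 1.24 and 2.10 CPM in E6.1 and at 19.9, 18 and 13.4 CPM in E7.2. It differed by 3.49 ± 0.32 (adjusted p = 0.000116), and the other lines held 6.38 to 15.7 CPM. Cfap300, a protein of motile cilia, was at 1.81, 1.54 and 1.85 CPM in E6.1 and at 7.76, 6.16 and 10.5 CPM in E7.2, a difference of 2.23 ± 0.21 (adjusted p = 0.000129). E6.1 was below all other libraries for each of these 3 genes.

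E6.1 was below all other libraries for the following genes too. Cyp2c55, a cytochrome P450, was at 0.0751 to 0.196 CPM in E6.1 and at 1.84 to 2.05 CPM in E7.2 (4.01, adjusted p = 0.000153), and close paralogs make its counts uncertain. The receptor for lysophosphatidic acid Lpar5 was at 0 to 0.0981 CPM in E6.1 and at 1.03 to 1.92 CPM in E7.2 (5.04, adjusted p = 0.000844), and with 4 read pairs in E6.1 in all the fitted value was 6.34 without E6.1 replicate 2 and 4.40 without E6.1 replicate 3. The keratin-like gene Krt222 was at 0.0634 to 0.125 CPM in E6.1 and at 1.22 to 1.66 CPM in E7.2 (3.89, adjusted p = 0.000844). This group also held the channel subunit gene Cacng7 (2.59, adjusted p = 0.00321), the transporter gene Slc22a15 (2.00, adjusted p = 0.00786), Smad7, the inhibitor of TGF-beta signalling (2.42, adjusted p = 0.0290), and Hk1, the first enzyme of glycolysis (1.22, adjusted p = 0.0254). Without E7.2 replicate 3, Smad7 was no longer called. Hk1 was called in 7 of the 15 alternatives and was lost with the replicate block (adjusted p = 0.0505), with the length and GC offset (0.0662), with the 6 libraries only (0.0589) and in 4 of the 6 fits without 1 library.

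In E7.2, 6 of the higher genes stood above all the other 12 libraries. Ptpn14, a tyrosine phosphatase that restrains the Hippo effector Yap, was at 22.3, 29.6 and 29.3 CPM in E7.2 and at 4.06, 5.72 and 4.63 CPM in E6.1. The parental line (13.3 to 18.2 CPM) and E6.2 (17.7 to 19.4 CPM) lay between these clones, and E7.1 was as low as E6.1 at 1.95, 5.34 and 5.04 CPM. The difference was 2.49 ± 0.30 (adjusted p = 0.000937). Serpinf1, which encodes the secreted factor PEDF, was at 4.46, 3.95 and 6.93 CPM in E7.2 and at 1.30, 1.80 and 1.53 CPM in E6.1, a difference of 1.73 ± 0.28 (adjusted p = 0.0108). Pdcl, a folding factor for G-protein subunits, was at 94.7, 102 and 95.2 CPM in E7.2 and at 48.2, 47.8 and 48.3 CPM in E6.1, a difference of 1.02 ± 0.17 (adjusted p = 0.0108). The libraries of all the other lines held 34.9 to 62.7 CPM of Pdcl. The cell cycle regulator gene Rgcc (2.50, adjusted p = 0.0449) and the p53-inducible gene Trp53i11 (1.45, adjusted p = 0.0479) had the weakest calls of this group, and neither was called without E7.2 replicate 3. The 6th gene, Cmtm7, is described with its neighbours on chromosome 9.

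Trim30a, a TRIM protein induced by interferon, was among the genes that were lower in E7.2. Its level was 5.55, 5.33 and 4.62 CPM in E7.2 and 21.5, 19.3 and 22.2 CPM in E6.1. Parental and E7.1 libraries were at 14.5 to 21.6 CPM, and 1 of the 3 E6.2 libraries was as low as E7.2 at 5.38 CPM. The difference was -2.02 ± 0.28 (adjusted p = 0.00321). Trim30a has near-identical neighbours in its gene cluster, which makes its counts uncertain.

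Tsnax, the partner of the RNA-binding protein translin, was at 46.9, 49.5 and 50.5 CPM in E7.2 and at 88.7, 92.5 and 92.6 CPM in E6.1, a difference of -0.90 ± 0.13 (adjusted p = 0.00494). All 12 libraries other than those of E7.2 held 65.0 CPM or more. The homeobox gene Dlx1 (-1.44, adjusted p = 0.0463) and Smpdl3b, a phosphodiesterase of the sphingomyelinase family (-1.74, adjusted p = 0.0161), also lay below all other libraries in E7.2, and neither was called without E7.2 replicate 3. Gm10863, a noncoding gene, was at 0.0528, 0.0533 and 0.0321 CPM in E7.2 and at 0.793, 0.720 and 0.550 CPM in E6.1. It differed by -3.77 ± 0.43 (adjusted p = 0.000811), and both clones were below the parental line at 5.26 to 6.38 CPM. Dusp9, a phosphatase that inactivates ERK, was at 0.0264, 0.107 and 0 CPM in E7.2 and at 0.793, 0.720 and 0.676 CPM in E6.1 (-3.88, adjusted p = 0.0111), and E6.2, at 0.0605 to 0.150 CPM, overlapped E7.2. The fitted value of Dusp9 was -5.35 without E7.2 replicate 2, and it was called in 2 of the 6 fits without 1 library. A630095E13Rik (-3.27, adjusted p = 0.00237) and the pseudogene Gm6445 (-3.82, adjusted p = 0.0463) were the remaining lower genes, and Gm6445 was not called without E7.2 replicate 3 (adjusted p = 0.162) and was called in 5 of the 15 alternatives.

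For 10 of the higher genes neither clone stood apart from all other lines. Daam1, a formin of the planar cell polarity branch of Wnt signalling, was at 65.2, 66.7 and 50.6 CPM in E7.2 and at 20.6, 25.4 and 23.5 CPM in E6.1. The other edited clones were as low as E6.1 at 18.2 to 23.7 CPM, and the parental line was at 44.1 to 52.0 CPM, overlapping E7.2. The difference was 1.39 ± 0.13 (adjusted p = 0.000129). Cd36, a scavenger receptor that takes up fatty acids, was at 73.1, 65.8 and 42.1 CPM in E7.2 and at 12.8, 15.6 and 12.9 CPM in E6.1, a difference of 2.14 ± 0.33 (adjusted p = 0.00786). Tmtc1, a mannosyltransferase of the endoplasmic reticulum, was at 37.2, 39.6 and 125 CPM in E7.2 and at 15.9, 16.6 and 18.5 CPM in E6.1 (1.99 ± 0.37, adjusted p = 0.0340), and its highest value was in E7.2 replicate 3. Without that library the difference was 1.20 (adjusted p = 0.0117), and Tmtc1 was not called when any 1 of the E6.1 libraries was left out (adjusted p = 0.122 to 0.203). The latrophilin gene Adgrl2 (2.06, adjusted p = 0.0210), the talin gene Tln2 (1.24, adjusted p = 0.0463), the mitophagy receptor gene Bnip3 (1.09, adjusted p = 0.0247), the membrane repair gene Myof (3.48, adjusted p = 0.0348), AB124611 (4.76, adjusted p = 0.00348) and Fam168a (0.79, adjusted p = 0.0247) were the others, with Aldoart2. Without E6.1 replicate 3 the fitted value was 5.92 for AB124611 and 4.16 for Myof, which was then not called (adjusted p = 0.0697). Aldoart2 is an aldolase gene copy with 0 counts in E6.1 and 0.660, 0.826 and 0.802 CPM in E7.2, at least 25.86-fold higher by the floor of 3 counts over the 3 libraries (adjusted p = 0.00786), and reads of other aldolase genes could reach it.

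Of the 35 higher genes, 9 lie within a single stretch of 13 tested genes on chromosome 9. Tested genes were ordered along each chromosome and the median difference was taken over windows of 15. Of the nuclear windows the largest median, 0.8684, was on chromosome 9, and it narrowed to 13 tested genes from Pdcd6ip to Gpd1l, chromosome 9 from 113651744 to 114933987 in GRCm38, a length of 1282244 bases. The median of the 13 was 0.89, against -0.24 for the 5 tested genes before and -0.02 for the 5 after, of which 0 were called. With windows of 30 genes the largest nuclear median was 0.48 and lay on chromosome 10, so the pattern on chromosome 9 is one of a short run of tested genes. The bounds were set from the values, and the median is therefore a description. No gene was tested between Epm2aip1, which ends at 111279097, and Pdcd6ip. Where in that gap the low stretch begins is not known, and the length given is only that of the 13 genes.

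The segment was low in E6.1 rather than high in E7.2. The summed level of its 13 genes was 404.5, 419.6 and 401.8 CPM in the E6.1 libraries and 790.1, 796.5 and 847.7 CPM in the E7.2 libraries. All 12 libraries outside E6.1 held 709.9 to 847.7 CPM. The median difference from the parental line was -0.89 for E6.1 and -0.01 for E7.2. E6.1 was below all 12 other libraries for 12 of the 13 genes, the exception being the noncoding 4930520O04Rik. Over the 9 called genes the median ratio of the parental line to E6.1 was 1.97. Copy number was not measured in these data.

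Pdcd6ip, also known as Alix and a partner of the ESCRT membrane machinery, was at 57.8, 72.2 and 62.4 CPM in E6.1 and at 149, 152 and 190 CPM in E7.2, the largest called difference of the segment (1.35 ± 0.16, adjusted p = 0.000844). Gpd1l, a glycerol-3-phosphate dehydrogenase, was at 45.6, 60.7 and 47.6 CPM in E6.1 and at 118, 116 and 111 CPM in E7.2 (1.17 ± 0.14, adjusted p = 0.00118). Cmtm6, which keeps the checkpoint ligand PD-L1 on the cell surface, was at 35.7, 36.2 and 39.4 CPM in E6.1 and at 62.7, 67.2 and 76.2 CPM in E7.2 (0.89 ± 0.14, adjusted p = 0.00786). E6.1 was the lower clone in every library for each of these genes. The related Cmtm7 differed by 0.95 ± 0.13 (adjusted p = 0.00321), and E7.2, at 40.6 to 44.9 CPM, also stood above all other lines there. The microtubule and motor genes Clasp2 (0.86, adjusted p = 0.00348) and Dync1li1 (0.96, adjusted p = 0.00235), Crtap of collagen hydroxylation (0.79, adjusted p = 0.0111), Tmppe (1.28, adjusted p = 0.00237) and the transcription factor gene Ubp1 (0.79, adjusted p = 0.0348) made up the rest of the called genes, and Ubp1 was lost without E7.2 replicate 3. The lysosomal beta-galactosidase gene Glb1 had a value of 1.33 (adjusted p = 0.10), Cnot10 of the CCR4-NOT deadenylase complex 0.59 (adjusted p = 0.0723) and Fbxl2 0.87 (adjusted p = 0.430). By their start and end positions, Glb1 overlaps Tmppe, Ubp1 overlaps Fbxl2 and Crtap overlaps 4930520O04Rik. Read pairs that mapped to both genes were not counted for either, and how many were lost in this way was not measured.

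**Figure D2:**
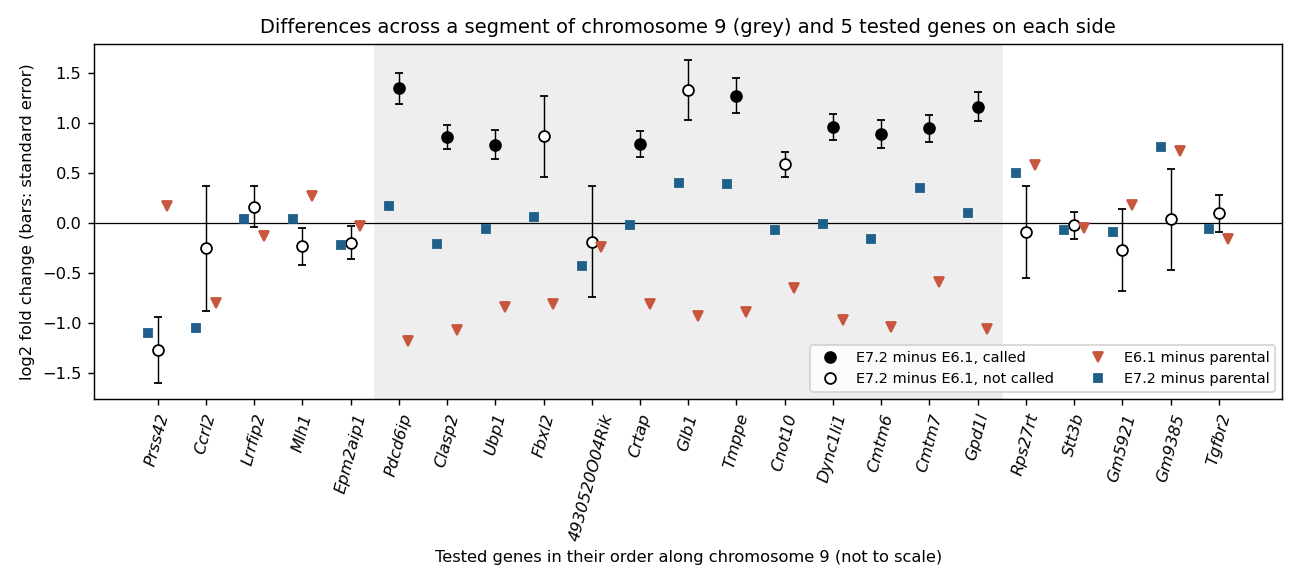
log2 fold change of the 13 tested genes of the chromosome 9 segment (grey) and the 5 tested genes on each side, in gene order and not to scale, for E7.2 minus E6.1 (circles with SE bars, filled where called), E6.1 minus parental (triangles) and E7.2 minus parental (squares). Inside the segment the median of E6.1 minus parental is -0.89 and that of E7.2 minus parental is -0.01.

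The other pair of an E7 and an E6 clone, E7.1 against E6.2, shares no library with this comparison and was used to ask which differences recurred. It had more calls, 2346 of the 13904 genes (16.9%), 1143 higher in E7.1 (8.22%) and 1203 lower (8.65%). Its E6.2 replicates 1 and 3 stood apart from their line (SD of deviations 0.629 and 0.701), and the calls were therefore also read without them and without E7.2 replicate 3. Of the 35 genes higher in E7.2, 22 had the same sign in the other pair, 7 were called in the same direction and 4 in the opposite one. Of the 14 lower genes, 5 had the same sign, 1 was called in the same direction and 2 in the opposite one. All tested genes shared the sign in 58.4% of cases. Without overlap between E7.1 and E6.2, 11 of the 35 were above and 4 below, and 1 of the 14 was below and 4 above, where 16.5% of all tested genes were above and 15.2% below. Without those 3 libraries, the counts called in the same direction were 4 and 1, and in the opposite direction 4 and 2, where Ubp1 dropped out (adjusted p = 0.150) and Pdcl came in (-0.39, adjusted p = 0.0415), with 1996 genes called in the other pair among 14593 tested.

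Foxp1 was the lower gene that recurred, at -0.90 in E7.1 against E6.2 (adjusted p = 0.0120), with 41.7, 64.2 and 64.3 CPM in E7.1 and 109, 104 and 105 CPM in E6.2. It stayed called in that pair without the libraries that stood apart (-0.85, adjusted p = 0.0475). The pairs did not differ beyond their error for Foxp1 (-0.37 ± 0.28, adjusted p = 0.474). Cd36 was at 2.45 in the other pair (adjusted p = 0.000975), Sept8 at 1.51 (adjusted p = 0.00295), Tln2 at 1.81 (adjusted p = 0.000877) and Gpd1l at 0.72 (adjusted p = 0.00825). Adgrl2, AB124611 and Aldoart2 were also called higher in both pairs, with 0 CPM of Adgrl2 in every E6.2 library. Without the libraries that stood apart, Cd36, Sept8, Tln2 and Adgrl2 stayed called in the other pair, while Gpd1l (0.48, adjusted p = 0.0738), AB124611 (adjusted p = 0.0602) and Aldoart2 (adjusted p = 0.0831) did not. The median of the chromosome 9 segment in the other pair was -0.05.

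The difference between the pairs was called for 18 of the 35 and 8 of the 14 genes, against 142 of all tested genes (1.02%). The 49 genes were chosen for a difference that enters this test, so the counts are a description. Ptpn14 turned round between the pairs, with 2.49 in E7.2 against E6.1 and -2.17 (adjusted p = 0.000877) in E7.1 against E6.2. Dusp9 went the other way, with -3.88 and 2.67 (adjusted p = 0.0116). Rab11fip4 (-0.35), Map2k1 (0.09) and Daam1 (0.27) were not called in E7.1 against E6.2.

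**Figure D3:**
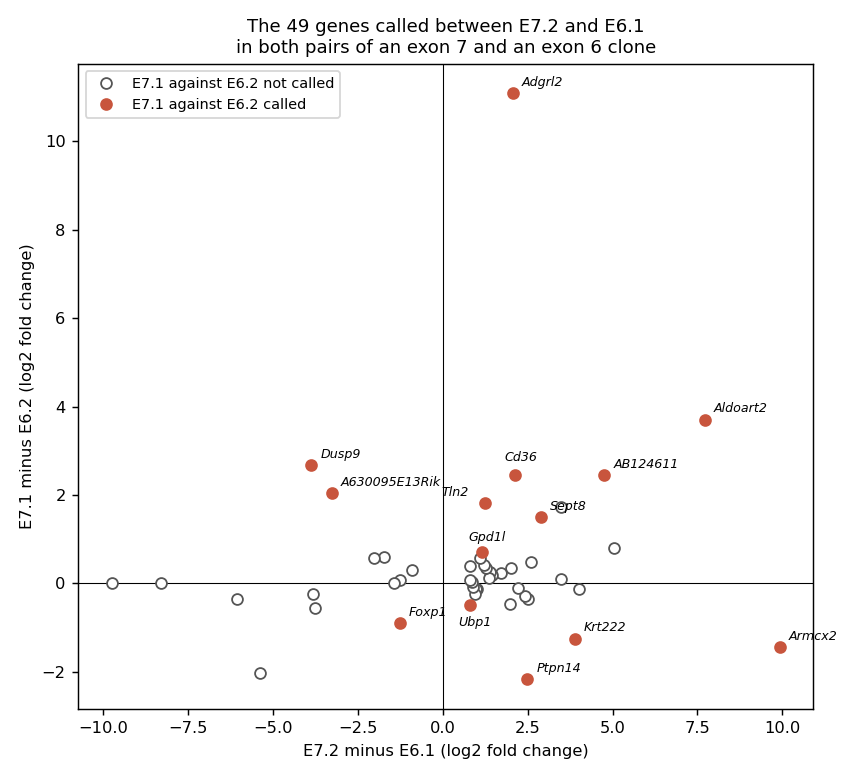
log2 fold change of the 49 called genes in E7.2 minus E6.1 (horizontal axis) and in E7.1 minus E6.2 (vertical axis), with filled points and names for the genes called in the second pair. Foxp1 is at the lower left and Cd36, Sept8, Tln2 and Gpd1l are at the upper right, while Ptpn14 and Armcx2 lie at the lower right and Dusp9 at the upper left. For genes with 0 or 1 counts in a line the plotted value depends on the prior count.

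Pathway genes were read by list, each with its median difference beside that of all tested genes (-0.01) and the 35 and 14 calls among them. Among 28 forkhead factors and corepressor partners of Foxp1, Foxp1 alone was called and the median was 0.09. Its relative Foxp4 had a value of 0.51 (adjusted p = 0.429), and the B-cell forkhead factor Foxo1 0.13 (adjusted p = 0.696). Foxp2 did not pass the filter on low counts.

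MHC class II genes, which present antigen to helper T cells, gave 0 calls among 25 tested, with 18 positive and a median of 0.19 (0.13 without E7.2 replicate 3). The chain gene H2-Aa was at 703 ± 33.2 CPM (SD, n = 3) in E6.1 and 953 ± 208 CPM in E7.2 (0.44 ± 0.26, adjusted p = 0.515). H2-Ab1 had a value of 0.32 (adjusted p = 0.591) and H2-Eb1 of 0.54 (adjusted p = 0.505), and all 3 E7.2 libraries were above those of E6.1 for each of these genes, as for 13.1% of all tested genes. The 4th chain gene tested, H2-Eb2, had a value of -0.28. The invariant chain gene Cd74 (0.22 ± 0.19, adjusted p = 0.653) overlapped between the clones, and the class II transactivator gene Ciita had a negative value of -0.37 (adjusted p = 0.475). Ifi30, a thiol reductase of antigen processing, had the largest value of the list at 1.34 ± 0.37 (adjusted p = 0.218). MHC class I presentation gave 0 calls among 17 tested, with 15 positive and a median of 0.31 (0.21 without that library).

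Of 47 tested genes of B-cell receptor signalling, Map2k1 was called, lower in E7.2, and the median was 0.11. The receptor chain gene Cd79a had a value of 1.07 ± 0.25 (adjusted p = 0.111) while its partner Cd79b had 0.02 (adjusted p = 0.961). The guanine nucleotide exchange factor gene Vav2 came close to the threshold at 0.80 ± 0.16 (adjusted p = 0.0501). B-cell transcription factors (34 tested, median 0.28) gave 0 calls, among them Bach2, which holds back plasma cell differentiation, with 111 ± 10.8 CPM in E6.1 and 51.3 ± 3.54 CPM in E7.2 (-1.12 ± 0.36, adjusted p = 0.286). Homing and cytokine receptors (29 tested, median -0.02) and T-cell costimulation and checkpoint ligands (16 tested, median -0.04) also gave 0 calls. The follicle homing receptor gene Cxcr5 had a value of 1.23 (adjusted p = 0.138), and the costimulatory ligand genes Cd80 and Cd86 had -2.58 (adjusted p = 0.103) and -1.04 (adjusted p = 0.268).

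Among 34 interferon-stimulated genes Trim30a was called, lower in E7.2, with a median of -0.25 (-0.15 without E7.2 replicate 3). Among 22 Wnt pathway genes Daam1 was called, higher, with a median of 0.12. Among 30 glycolysis genes Hk1 was called, higher, with a median of 0.37 (0.46 without that library) and with the limits of the Hk1 call given above. All 17 of the glycolytic enzymes tested had positive values, with a median of 0.67, from 0.06 to 1.62 for Aldoc (adjusted p = 0.103), while 16 of the 17 were positive with the length and GC offset or without E6.1 replicate 1. Lactate dehydrogenase Ldha had a value of 0.87 (adjusted p = 0.355) and overlapped between the clones. The 20 cholesterol synthesis enzymes were likewise all positive, with a median of 0.50 (0.69 without E7.2 replicate 3). Between 16 and 20 of them were positive when 1 library was left out. The summed level of the list overlapped between the clones, at 2210 to 3158 CPM in E6.1 and 2517 to 3696 CPM in E7.2. Of the list's 34 tested genes 0 were called. Its member Abcg1, an exporter of cholesterol, had a negative value, with 15.5 ± 5.89 CPM in E6.1 and 2.49 ± 0.865 CPM in E7.2 (-2.63 ± 0.58, adjusted p = 0.0895).

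E7.2 replicate 3 moved several lists. Cytosolic ribosomal protein genes had a median of 0.53 with 77 of 78 positive, and -0.03 with 34 positive when that library was left out. DNA replication genes went from -0.15 to 0.23, with 42 tested. Mitochondrially encoded genes went from 1.24 to 0.62, with 13 tested, and they also moved with E6.1 replicate 1, which held the lowest sum of the 6 libraries (7647 CPM, against up to 38401 CPM in E6.1) and without which the median was 0.75. In E7.2 replicate 3 against the other E7.2 libraries, the median of the ribosomal protein genes was 1.24, that of the mitochondrial genome 1.39 and that of DNA replication -1.61 (log2 CPM), while all tested genes were at 0.01. In each of these lists 0 genes were called with or without E7.2 replicate 3.

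**Figure D4:**
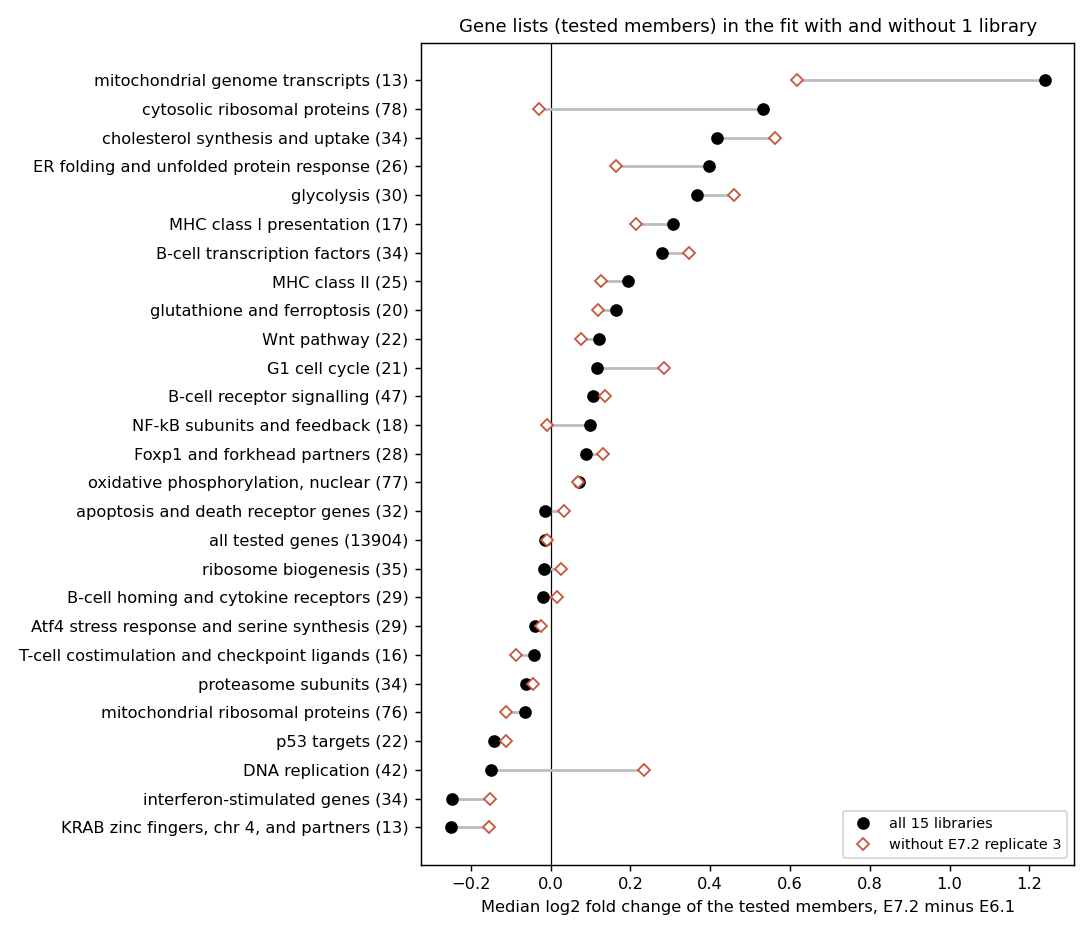
Median log2 fold change (E7.2 minus E6.1) of the tested genes of each list, with the number tested in parentheses, from all 15 libraries (filled circles) and without E7.2 replicate 3 (open diamonds). The longest lines between the symbols belong to mitochondrial genome transcripts, cytosolic ribosomal proteins and DNA replication.

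A set of 4 genes that the study names for all its clones was read here between this pair, and 0 were called. The immunoglobulin lambda variable gene Iglv2 was at 0.191 ± 0.0837 CPM (SD, n = 3) in E6.1 and 0.319 ± 0.161 CPM in E7.2 (0.73, adjusted p = 0.664), with 18.6 CPM in the parental line. Lgr6, a receptor of the Wnt pathway, was at 0.223 ± 0.0270 and 0.263 ± 0.136 CPM (0.21, adjusted p = 0.879), with 1.39 CPM in the parental line. Meioc, a meiosis gene, was at 0.195 ± 0.0296 and 0.147 ± 0.0804 CPM (-0.39, adjusted p = 0.763), with 3.88 CPM in the parental line. Phyhip had 3 read pairs in E6.1 and 7 in E7.2, a ratio of 2.235 (95% interval 0.5103 to 13.4, counting error only). The clones overlapped for all 4 genes. Of the genes with near matches to the guides, Map1b had 4 read pairs in E6.1 and 1 in E7.2, a ratio of E6.1 to E7.2 of 4.176 (95% interval 0.4132 to 205.6). Both clones, E7.2 with the exon 7 guide included, were below the parental line for Map1b. The means were 0.0410 CPM in E6.1, 0.00880 CPM in E7.2 and 0.671 CPM in the parental line. Ovgp1 had a value of -0.48 (adjusted p = 0.488). In E7.1 against E6.2, Map1b (-7.23, adjusted p = 0.00101) and Ovgp1 (-1.68, adjusted p = 0.00258) were called lower, and Rhpn2 was not called (-0.26, adjusted p = 0.636). Rhpn2 had a value of 0.19 (adjusted p = 0.842), and the pair of genes once named Tmem194, Nemp1 and Nemp2, had -0.35 (adjusted p = 0.639) and -0.28 (adjusted p = 0.706). None of these was called between E7.2 and E6.1, and Zfp804b did not pass the filter on low counts.

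The forkhead core TGTTTAC or its reverse complement GTAAACA was searched in promoters from RefSeq (GRCm38.p6, 250 bases before to 50 after the start). It was in 0 of the 30 higher and 0 of the 7 lower called genes that have a promoter in the table. Of all tested genes with a promoter, 288 of 9488 (3.04%) held it, as did 3.65% of all 32851 promoters. The search says only that these letters are not in those windows.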

How the data were processed

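Total RNA of 15 A20 libraries was sequenced, of which the 6 of E7.2 and E6.1 are compared here. The authors deposited raw read pair counts per gene, made per the file headers with featureCounts 1.5.0 without strand after HISAT alignment to mm10, and pairs that mapped to several places or genes were not counted. The 41480 features include 92 spike-ins with 0 counts. Genes kept by filterByExpr (13904) were tested in R 4.3.3 with edgeR 4.0.16 (TMM, glmQLFit and glmQLFTest in legacy form), with all 15 libraries and the line as the only factor, and Benjamini-Hochberg adjustment over all genes tested. On simulated data the test recovered 82 of 102 genes changed 4-fold and 33 of 98 changed 2-fold, with 5 false calls. Library totals (30194829 to 39181530) limit precision for low genes, and intervals and floors (3 counts over the 3 libraries of a line) cover counting error only. Libraries of a line were not copies of each other. Replicate numbers did not pair the clones (r of same-numbered libraries -0.051, 0.1071 and 0.0159). Named genes were Foxp1, up to 15 called genes per direction with the largest fold change and a mean of at least 1 CPM, called members of the lists, called genes of the 3 leading windows, and genes the study names. Aldoart2, Lpar5, Krt222, Smad7, Trp53i11, Tln2, Bnip3, Pdcl, Fam168a, Gm10863, Gm6445, Dusp9, Gm21850 and the uncalled list members were named after their values were seen. The comparison, its members and the gene lists were chosen with earlier results of these data known. Alternatives were other normalization, filters, DESeq2 1.42.0, fewer libraries, a replicate block and a length and GC offset. The authors' own comparisons were not used here.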

Additional observations from a re-analysis of the deposited data

Results flagged for a closer look

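For 8 of the 49 genes the libraries did not overlap in either pair, and E7.2 against E6.1 went the opposite way from E7.1 against E6.2. Of all tested genes, 16.5% had every E7.1 library above those of E6.2 and 15.2% had every one below. The count of 8 is near those shares, so it is not a result about these genes. The difference between the pairs was tested as a contrast in the same edgeR fit, on genes that had been chosen for the first of its terms. It was 11.36 ± 0.48 (log2 ± SE, adjusted p = 1.368e-08) for Armcx2, whose size depends on the prior count because E6.1 held 1 read pair. It was 4.66 ± 0.42 (adjusted p = 4.212e-05) for Ptpn14, 2.45 ± 0.51 (adjusted p = 0.0347) for Tmtc1 and 1.26 ± 0.21 (adjusted p = 0.00692) for Ubp1. Among the genes lower in E7.2 it was -2.34 ± 0.41 (adjusted p = 0.0110) for Smpdl3b, -2.59 ± 0.39 (adjusted p = 0.00360) for Trim30a, -5.32 ± 0.62 (adjusted p = 0.000439) for A630095E13Rik and -6.55 ± 0.86 (adjusted p = 0.00114) for Dusp9. Without E7.2 replicate 3 and E6.2 replicates 1 and 3, which leaves E6.2 with 1 library assumed to vary like the others, the difference was no longer called for Smpdl3b (-1.99, adjusted p = 0.130) and Ubp1 (1.10, adjusted p = 0.0542), and it was still called for the other 6.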

How the results depend on the processing

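None of the 49 genes changed sign in any of the 15 alternatives, and 22 were called in all of them. The counts higher and lower, 35 and 14, became 74 and 29 with no filter on low counts, 180 and 55 with the DESeq2 Wald test, and 75 and 30 without E7.2 replicate 3 and E6.2 replicates 1 and 3, a setting chosen after seeing the data. When each library was left out in turn, 18 to 36 were called higher and 8 to 12 lower. The fewest were called without E6.1 replicate 3 (18 and 8), and leaving out E6.1 replicate 1 (19 and 9) lowered both counts by over 1.5 times, as leaving out E7.2 replicate 1 (27 and 9) did the lower count. Of the 49 genes, 24 were called in every one of these fits. Foxp1 ranged from -1.41 to -1.17 over them and was at -1.11 with the length and GC offset, and its adjusted p ranged from 3.077e-06 to 0.0912 over all alternatives. In the fit with the replicate block, 30 were called higher and 10 lower, 39 of them among the 49, and the replicate numbers did not otherwise pair the clones. With only the 6 libraries, 39 and 13 were called, 30 of them among the 49. Of the list medians, 11 moved by more than the SD between replicates without E7.2 replicate 3 and 8 changed sign. The largest nuclear window median was 0.48 with windows of 30 genes. Depth limits what can be said of genes with few counts in both clones.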
